A study of Homo sapiens with 24 samples.

Results

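Fibrinogen and the acute phase proteins were followed through the expression of 10 genes, chosen by name from the 33127 genes that the deposited counts could be joined to. These were the fibrinogen chain genes *FGA*, *FGB* and *FGG*, the protease inhibitor genes *SERPINA1* and *SERPINA3*, the acid glycoprotein genes *ORM1* and *ORM2*, and *C3*, *LCN2* and *CP*. All 10 were listed, and 6 of them (*FGA*, *FGB*, *FGG*, *SERPINA3*, *C3* and *CP*) had enough reads to be tested for a response to dex. *SERPINA1*, *LCN2*, *ORM1* and *ORM2* were counted at 0 to 7 reads per library and are given as counts.

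Acute phase proteins are plasma proteins whose blood level shifts during infection or tissue injury. The liver is their main source. There interleukin-6 acting through STAT3 raises the transcription of many of them, and interleukin-1 acting through C/EBP factors and NF-kappaB that of some. Glucocorticoids (GCs) are known to enhance the interleukin-6 arm. Lung epithelial cells also make some of them, fibrinogen and C3 among them, so an epithelial cell line gives a view of these genes outside the liver.

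The data came from A549 cells, an established human line grown from a lung adenocarcinoma. Cells were exposed to 100 nM dexamethasone (dex), a synthetic GC that activates the glucocorticoid receptor (GR), or to its vehicle ethanol (EtOH, 0.02% of the medium, which the dex cultures also received). Poly-A RNA was sequenced after 1, 3, 5, 7, 9 and 11 h, with 2 libraries for each treatment and time, so 24 libraries in 12 groups. All cultures were of 1 line, and how separate the cultures of a group were is not described beyond the words biological replicate, so p-values reflect only the spread between these libraries.

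The libraries held 6708864 to 13748598 counted reads, with a median of 9975978.5 for dex and 10112359.5 for EtOH. Mitochondrial transcripts took 4.13 to 6.32% of the reads with dex and 3.30 to 5.63% with EtOH. Of 8 well known GC target genes 7 were tested, and 6 of them were higher with dex at 1 h and all 7 at every later time, so the treatment labels held. Of 5 epithelial marker genes all 5 were tested, and their summed level ran from 3872 to 10644 normalized CPM (counts scaled to library size) with dex and from 3241 to 5221 CPM with EtOH. Of 8 markers of alveolar type II cells only 2, *ABCA3* and *NAPSA*, were tested, and the surfactant genes *SFTPA1* and *SFTPA2* had no read in any library. The 8 markers summed to 28.99 to 50.45 CPM with dex and 24.68 to 36.88 CPM with EtOH, most of it from *ABCA3*. As the members are known as liver genes, 7 hepatocyte markers were also followed, and they summed to 0.661 to 1.79 CPM with dex and 0.489 to 1.58 CPM with EtOH. *ALB*, *TTR*, *APOA2* and *APOC3* were among the 6 of those markers that were too low to test. In bulk RNA, a change in the number of cells that express a gene and a change in the RNA per cell cannot be told apart.

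*FGA*, *FGB*, *SERPINA3* and *C3* rose with dex, with their largest step between 3 and 5 h, *FGG* rose less and *CP* was not called. At an adjusted p of at most 0.1 (edgeR quasi-likelihood F-test, Benjamini-Hochberg over the 19897 features tested), 0 of the 6 tested members were higher with dex at 1 h, 3 at 3 h, 5 at 5 h, 5 at 7 h, 4 at 9 h and 4 at 11 h. At 1 h the count was 0 as well at an unadjusted p under 0.05 and with DESeq2. Over all features the shares called higher were 0.523%, 7.66%, 11.2%, 13.4%, 9.79% and 5.31% at those times. No tested member was called lower at any time by edgeR or by DESeq2, and 1, *CP* at 7 h, was lower at an unadjusted p under 0.05 by edgeR. Of all features, 0.342%, 5.29%, 11.9%, 12.4%, 8.42% and 3.27% were called lower from 1 to 11 h at an adjusted p of at most 0.1 (edgeR). The median log2 fold change of the 6 was 0.069 at 1 h, 0.38 at 3 h, 1.95 at 5 h, 2.06 at 7 h, 1.60 at 9 h and 1.25 at 11 h, while the median over all features lay within 0.01 of 0 at each time. At 2 or more consecutive times 5 members (*FGA*, *FGB*, *FGG*, *SERPINA3* and *C3*) were higher, as were 9.7% of all features. *CP*, the copper-carrying ferroxidase ceruloplasmin, was called at no time.

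**Figure D1:**
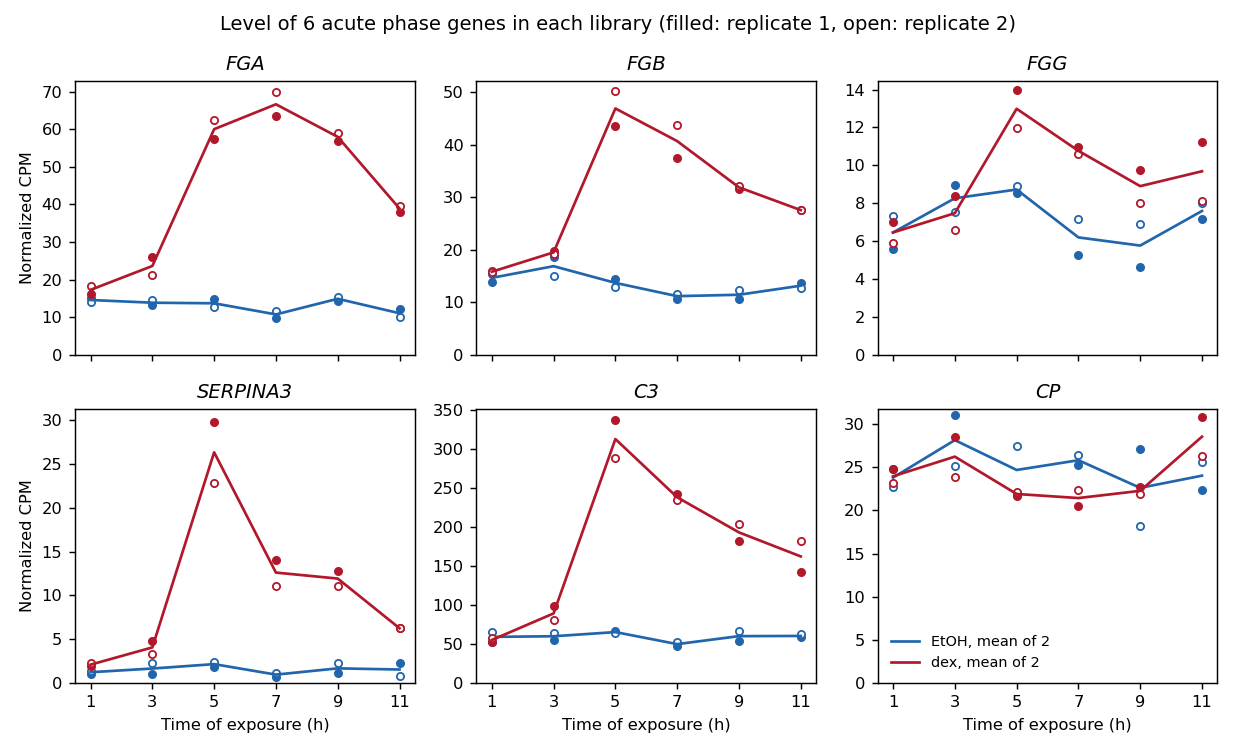
Level of the 6 tested genes in each library, in normalized CPM on an axis that starts at 0, against hours of exposure. Points are single libraries and lines join the means of 2 libraries. Dex libraries of *FGA*, *FGB*, *SERPINA3* and *C3* lie above all EtOH libraries of the same time from 3 h on, those of *FGG* do so from 5 h, and those of *CP* mix with the EtOH libraries at 1, 3, 5 and 9 h.

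The promoters of the 3 fibrinogen genes and of *SERPINA3* are shown because these genes rose by different amounts. The fibrinogen genes are neighbours on chromosome 4, with *FGB* at 154562956 to 154571086 on the plus strand, *FGA* at 154583126 to 154590766 and *FGG* at 154604134 to 154612967, both on the minus strand (GENCODE release 29, GRCh38). *SERPINA3* lies on chromosome 14 at 94612377 to 94624055 on the plus strand. Each sequence is the 250 bases before a RefSeq gene start in GRCh38.p14, written 5′ to 3′ on the gene's strand, with motif matches in capitals:
FGA chr4:154590743-154590992: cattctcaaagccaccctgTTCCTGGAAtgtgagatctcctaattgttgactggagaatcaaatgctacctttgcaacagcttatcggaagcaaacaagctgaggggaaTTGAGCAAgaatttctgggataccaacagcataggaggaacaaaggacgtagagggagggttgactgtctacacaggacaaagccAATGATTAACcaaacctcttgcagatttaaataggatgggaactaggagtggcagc
FGB chr4:154562730-154562979: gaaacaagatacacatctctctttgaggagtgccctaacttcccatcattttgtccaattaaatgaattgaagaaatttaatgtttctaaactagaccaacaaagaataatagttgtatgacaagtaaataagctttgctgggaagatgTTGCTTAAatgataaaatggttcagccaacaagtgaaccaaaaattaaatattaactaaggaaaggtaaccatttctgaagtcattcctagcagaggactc
FGG chr4:154612657-154612906: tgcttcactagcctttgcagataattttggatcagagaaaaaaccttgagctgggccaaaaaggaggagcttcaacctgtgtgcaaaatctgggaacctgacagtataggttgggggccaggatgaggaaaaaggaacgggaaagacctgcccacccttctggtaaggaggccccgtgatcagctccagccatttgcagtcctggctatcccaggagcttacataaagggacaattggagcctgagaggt
SERPINA3 chr14:94612141-94612390: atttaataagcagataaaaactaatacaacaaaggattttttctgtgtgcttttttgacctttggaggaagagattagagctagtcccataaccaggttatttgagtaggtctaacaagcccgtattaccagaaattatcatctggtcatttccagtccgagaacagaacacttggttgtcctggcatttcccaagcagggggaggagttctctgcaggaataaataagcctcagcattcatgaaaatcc

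The 5 motifs were searched on both strands, and matches of different motifs did not overlap in the printed promoters. *FGA* held a STAT motif (TTCNNNGAA) at position -231, a C/EBP motif (TTGCNNAA, read on the other strand) at -141 and an HNF1 motif (GTTAAT and ATT with 1 base between, also on the other strand) at -56, counted from the gene start. *FGB* held 1 C/EBP motif at -101 in the printed promoter, which is the upstream one of 2 listed starts. *FGG* and *SERPINA3* held none of the 5. The printed *FGG* bases lie wholly inside the GENCODE bounds of that gene, and its most counted transcript row starts among them, at 154612849. The other printed promoters overlap the bounds of their genes only in part. Of 35116 promoters of the same length, 6.57% held the STAT motif, 9.05% the C/EBP motif and 0.296% the HNF1 motif. The GR element (GNACA and TGTNC with 3 bases between, in 0.327% of promoters) and the NF-kappaB motif (GGG and TTTCC with 2 bases between, in 1.73%) were found in none of the 7 members with a listed promoter. A match here is a match of letters only.

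*FGA* encodes the fibrinogen alpha chain, a chain from which thrombin removes a peptide when a clot forms. It was counted at 16.2 and 18.3 CPM in the dex libraries and at 15.2 and 13.9 CPM in the EtOH libraries at 1 h. The 3 h values were 26.1 and 21.1 CPM with dex and 13.2 and 14.5 CPM with EtOH. Both dex libraries were thus above both EtOH libraries from the start, though the 1 h gap was small. By 5 h *FGA* stood at 57.5 and 62.5 CPM with dex against 14.7 and 12.7 CPM, and at 7 h at 63.4 and 69.8 CPM against 9.69 and 11.7 CPM. The level was then lower, at 56.9 and 59.0 CPM at 9 h and 38.1 and 39.7 CPM at 11 h, with EtOH at 14.4 and 15.4 CPM and at 12.1 and 9.97 CPM. The EtOH libraries stayed within 9.69 to 15.4 CPM while every dex library from 3 h on was above that range. In *FGA* the log2 fold change was 0.25 ± 0.17 (SE) at 1 h and 0.75 ± 0.15 at 3 h, with adjusted p (edgeR) of 0.901 and 0.000733. It reached 2.13 ± 0.14 at 5 h and 2.63 ± 0.12 at 7 h, a 6.19-fold difference (adjusted p 1.87e-18, edgeR), and was 1.98 ± 0.14 at 9 h and 1.82 ± 0.18 at 11 h, where the adjusted p was 2.51e-05. Both transcript rows of the gene were called higher at 3, 5, 7, 9 and 11 h, with log2 fold changes of 2.57 and 2.65 at 7 h.

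*FGB* encodes the beta chain. Its dex libraries held 15.9 and 15.8 CPM at 1 h and 19.9 and 19.2 CPM at 3 h, next to 13.8 and 15.5 CPM and 18.7 and 15.1 CPM with EtOH. These values lay just above those of the vehicle, and the test did not separate them (log2 fold change 0.12 ± 0.17 at 1 h and 0.21 ± 0.15 at 3 h, adjusted p 0.980 and 0.480, edgeR). At 5 h the dex level was 43.7 and 50.2 CPM and the EtOH level 14.4 and 12.999 CPM. At 7 h it was 37.6 and 43.9 CPM with dex and 10.7 and 11.6 CPM with EtOH. The dex libraries fell back to 31.6 and 32.2 CPM at 9 h and 27.6 and 27.6 CPM at 11 h, while EtOH held 10.6 and 12.3 CPM and 13.6 and 12.7 CPM. All 8 dex libraries from 5 to 11 h were above the highest EtOH library of any time, at 18.7 CPM. For *FGB* the log2 fold change was 1.78 ± 0.14 at 5 h, 1.86 ± 0.13 at 7 h, 1.50 ± 0.15 at 9 h and 1.06 ± 0.18 at 11 h, with an adjusted p of 1.03e-13 at 7 h and 0.00202 at 11 h (edgeR). The 3 transcript rows were all called higher at 5, 7 and 9 h.

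*FGG*, the gamma chain gene, moved least of the fibrinogen genes. Dex libraries held 7.00 and 5.91 CPM at 1 h and 8.38 and 6.57 CPM at 3 h, and EtOH libraries 5.56 and 7.34 CPM and 8.98 and 7.55 CPM. The treatments overlapped at both times. At 5 h dex gave 14.0 and 11.99 CPM against 8.53 and 8.92 CPM, and at 7 h 11.0 and 10.6 CPM against 5.24 and 7.15 CPM. At 9 h the values were 9.77 and 8.04 CPM against 4.64 and 6.89 CPM, and at 11 h 11.2 and 8.14 CPM against 7.18 and 8.001 CPM. The treatments no longer overlapped from 5 h on, although the nearest libraries at 11 h differed little. The log2 fold change passed the test at 5 h (0.57 ± 0.19, adjusted p 0.0272) and 7 h (0.80 ± 0.19, adjusted p 0.00199) by edgeR. At 9 h it was 0.63 ± 0.24 with an adjusted p of 0.101 and at 11 h 0.35 ± 0.23 with 0.538 (edgeR). The calls of *FGG* depended on the setting: DESeq2 gave an adjusted p of 0.179 at 5 h, and leaving out EtOH replicate 2 gave 0.00408 at 9 h. With the most counted transcript row in place of the gene, the 5 and 7 h calls were lost, at adjusted p of 0.391 and 0.364 (edgeR). Of the 6 transcript rows of *FGG*, 2 were called higher at 5 h, 1 at 7 h and 0 at 9 and 11 h (2 and 1 at an unadjusted p under 0.05 by edgeR).

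**Figure D2:**
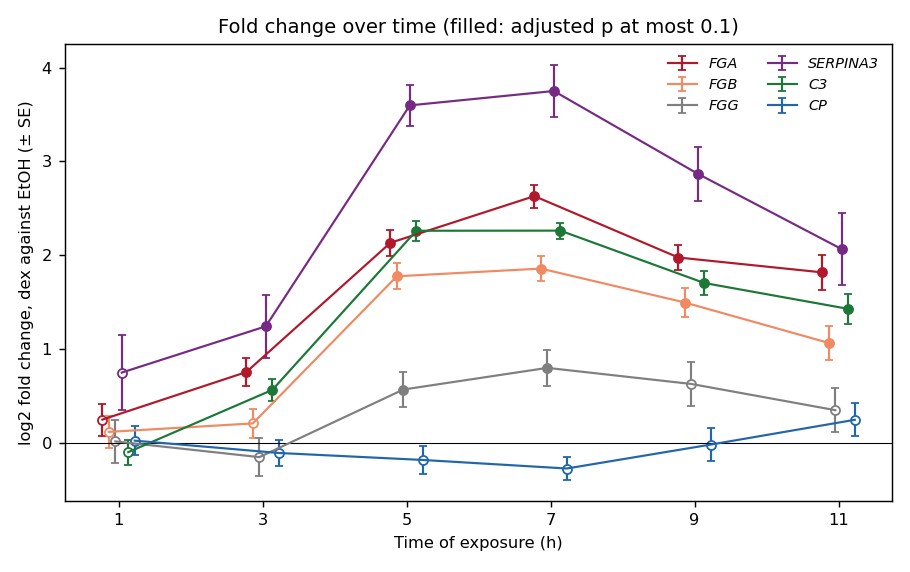
Log2 fold change of dex against EtOH for the 6 tested genes over hours of exposure, from edgeR with 2 against 2 libraries at each time. Bars are standard errors and filled points have an adjusted p of at most 0.1. *SERPINA3* reaches 3.75, *FGA* 2.63, *C3* 2.26, *FGB* 1.86 and *FGG* 0.80 at 7 h, and *CP* stays between -0.27 and 0.24.

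The chains of fibrinogen are assembled in equal numbers into 1 protein, so the balance of their mRNAs was compared inside each library, where library size cancels. The *FGA* to *FGB* ratio of CPM was 0.705 to 1.35 (median 0.968) in the 12 EtOH libraries and 1.02 to 1.83 (median 1.35) in the 12 dex libraries. The *FGA* to *FGG* ratio was 1.25 to 3.10 (median 1.79) with EtOH and 2.31 to 7.35 (median 4.49) with dex. The *FGB* to *FGG* ratio was 1.46 to 2.48 (median 1.95) with EtOH and 2.27 to 4.19 (median 3.18) with dex. All 3 medians were thus higher with dex, while the ranges of the treatments overlapped. Averaged over the 6 times, the log2 ratio was higher with dex by 0.51 for *FGA* to *FGB*, 1.22 for *FGA* to *FGG* and 0.71 for *FGB* to *FGG*. An exact two-sided permutation test that exchanged labels within times gave p = 8.57e-05 for each of the 3 ratios, and the same after Benjamini-Hochberg adjustment over the 3. The rise was therefore unequal among the chains, largest for *FGA* and smallest for *FGG*. These ratios are not per transcript length and do not give the number of molecules.

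**Figure D3:**
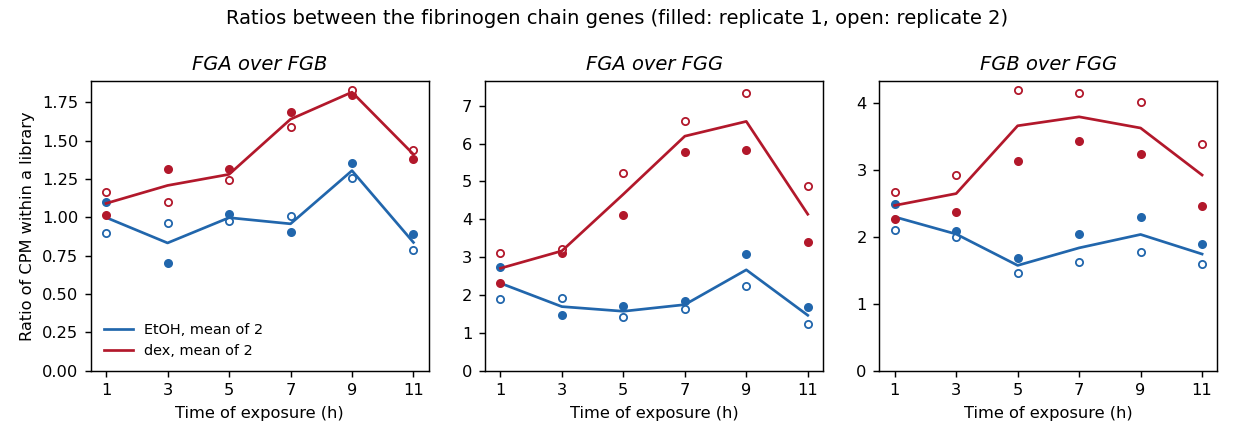
Ratio of the CPM of 2 fibrinogen genes within each library, against hours of exposure, on axes that start at 0. Points are single libraries and lines join the means of 2. The *FGA* to *FGG* ratio with dex rises from 2.31 and 3.10 at 1 h to 5.82 and 7.35 at 9 h, while EtOH libraries stay at or below 3.10.

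*SERPINA3* encodes alpha-1-antichymotrypsin, an inhibitor of the neutrophil protease cathepsin G. It was the lowest of the tested members with EtOH and had the largest fold change. At 1 h it was counted at 1.87 and 2.27 CPM with dex and 1.04 and 1.37 CPM with EtOH, and at 3 h at 4.76 and 3.33 CPM with dex and 1.02 and 2.24 CPM with EtOH. At 5 h the level was 29.8 and 22.9 CPM with dex against 1.85 and 2.42 CPM. No dex library at a later time reached these values. The level was 14.1 and 11.1 CPM at 7 h, 12.8 and 11.0 CPM at 9 h and 6.23 and 6.24 CPM at 11 h, against 0.692 and 1.17 CPM, 1.07 and 2.23 CPM, and 2.27 and 0.767 CPM with EtOH. The log2 fold change was 3.60 ± 0.22 at 5 h and 3.75 ± 0.28 at 7 h, or 12.1-fold and 13.5-fold (adjusted p 6.92e-18 and 4.99e-13, edgeR). Both treatments were lower at 7 h than at 5 h. It was 2.87 ± 0.29 at 9 h and 2.06 ± 0.39 at 11 h, with an adjusted p of 0.00385 at 11 h (edgeR). The 3 h call (1.24 ± 0.34, adjusted p 0.0141, edgeR) was lost with DESeq2, at an adjusted p of 0.171, and without dex replicate 1 or EtOH replicate 1, at 0.141 and 0.220 by edgeR. All 6 transcript rows were called higher at 5, 7 and 9 h. At 3 and 11 h 0 of 6 were called, and 1 and 5 of 6 had an unadjusted p under 0.05 by edgeR.

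Of all 50-base windows in the transcripts of *SERPINA3*, 35.3% also occur in *AL049839.2*, a gene that overlaps it, so reads may have been split between them. *AL049839.2* was counted at 44 and 46 reads with dex and 3 and 6 with EtOH at 5 h, and its log2 fold change was 3.55 ± 0.41 at 5 h and 3.52 ± 0.48 at 7 h (adjusted p 2.21e-09 and 5.09e-07, edgeR). It held 294 reads in all 24 libraries, next to 1400 for *SERPINA3*, and the 2 genes cannot be told apart where they share sequence.

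*SERPINA1*, on the same chromosome, encodes alpha-1-antitrypsin, the main inhibitor of neutrophil elastase. It held 28 reads in all 24 libraries, 21 with dex and 7 with EtOH. With dex the 4 libraries at 1 and 3 h held 0, those at 5 h 5 and 2, at 7 h 2 and 1, at 9 h 3 and 2 and at 11 h 5 and 1. With EtOH the libraries held 1 and 2 at 1 h, 1 and 1 at 3 h, 0 and 1 at 5 h, 0 in all 4 at 7 and 9 h, and 0 and 1 at 11 h. So the reads with dex were all from 5 h or later and most of the EtOH reads were from 1 and 3 h. Over all times the CPM was higher with dex by 0.132 on average (p = 0.0360, exact two-sided permutation test within times, 0.0719 after adjustment for the 2 low genes tested). From 5 to 11 h, a window chosen after the counts were seen, dex held 21 reads and EtOH 2, a ratio of 10.3 per counted read with a 95% exact interval of 2.52 to 90.6 that covers counting error only. Over all times the ratio was 3.18, with an interval of 1.302 to 8.85. A count of 0 in 1 library allows up to 3 reads, which is 0.218 to 0.447 CPM across the libraries.

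*C3*, the central component of complement where the complement pathways converge, was the member with the most reads. At 1 h its level was 52.7 and 57.0 CPM with dex and 52.8 and 64.9 CPM with EtOH. At 3 h it was 97.8 and 80.0 CPM against 55.2 and 64.1 CPM. The treatments overlapped at 1 h and were apart at every later time. At 5 h dex gave 336.4 and 288.5 CPM against 66.5 and 63.5 CPM, and at 7 h 241.8 and 233.7 CPM against 47.2 and 52.0 CPM. At 9 h it gave 182.0 and 203.6 CPM against 53.8 and 65.8 CPM, and at 11 h 141.9 and 182.0 CPM against 58.1 and 62.0 CPM. The EtOH libraries were steady, at 47.2 to 66.5 CPM. For *C3* the log2 fold change was -0.10 ± 0.13 at 1 h and 0.56 ± 0.12 at 3 h (adjusted p 0.971 and 0.00094, edgeR). It was 2.26 ± 0.11 at 5 h and 2.26 ± 0.08 at 7 h, a 4.80-fold difference (adjusted p 3.96e-21, edgeR), then 1.70 ± 0.13 at 9 h and 1.43 ± 0.16 at 11 h (adjusted p 4.72e-05, edgeR). All 5 transcript rows were called higher at 5, 7, 9 and 11 h, with log2 fold changes of 2.12 to 2.35 at 5 h.

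*CP* did not follow the other tested members. Dex libraries held 20.5 to 30.8 CPM (median 22.9) and EtOH libraries 18.1 to 31.1 CPM (median 25.2), and the treatments overlapped at 1, 3, 5 and 9 h. At 7 h it was 20.5 and 22.3 CPM with dex and 25.2 and 26.4 CPM with EtOH, and both dex libraries were below both EtOH libraries, as for 28.2% of all features at that time. At 11 h the order was the other way, at 30.8 and 26.3 CPM with dex and 22.4 and 25.6 CPM with EtOH. The log2 fold change ran from -0.27 ± 0.12 at 7 h (adjusted p 0.118, edgeR) to 0.24 ± 0.17 at 11 h (adjusted p 0.568, edgeR). The 7 h value passed when genes under 10 counts in any library were left out (adjusted p 0.0893, edgeR), without EtOH replicate 1 (adjusted p 0.0716, edgeR) and for the most counted transcript row in place of the gene (-0.44, adjusted p 0.0341, edgeR). Of the 4 transcript rows of *CP* tested, that 1 was called lower at 7 h, and 0 were called at the other times, where 1 row at 3 h and 1 at 5 h had an unadjusted p under 0.05 (edgeR). Without dex replicate 2 the 11 h value passed in the higher direction, at 0.36 with an adjusted p of 0.0797 (edgeR). Of the 50-base windows in *CP* transcripts, 28.7% also occur in other genes, among them *HPS3*, which overlaps *CP* on the opposite strand. *HPS3* had log2 fold changes of -0.11 to 0.12, none called.

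*LCN2* encodes lipocalin 2, which binds bacterial iron carriers, and it was near the limit of detection. It held 60 reads in all, 34 with dex and 26 with EtOH, at 0 to 7 reads per library in each treatment. From 5 to 11 h dex libraries held 1 to 7 reads and EtOH libraries 0 to 4, and at 1 and 3 h the order was the other way, with 7 reads for dex and 15 for EtOH. The mean difference over all times was 0.107 CPM (p = 0.0934, exact two-sided permutation test within times, and 0.0934 after adjustment). From 5 to 11 h, the window chosen after the counts were seen, the ratio was 2.41 per counted read (27 against 11 reads, 95% exact interval 1.16 to 5.38), and over all times it was 1.39 (0.807 to 2.40), with intervals that cover counting error only. *ORM1* and *ORM2* encode the acid glycoproteins, carriers of basic drugs and steroids in plasma. Each held 2 reads in all 24 libraries. Both *ORM1* reads were in 1 EtOH library at 1 h, and *ORM2* had 1 read with each treatment. As 47.4% of *ORM1* windows and 50.2% of *ORM2* windows are shared between them, even those reads cannot be placed with certainty.

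**Figure D4:**
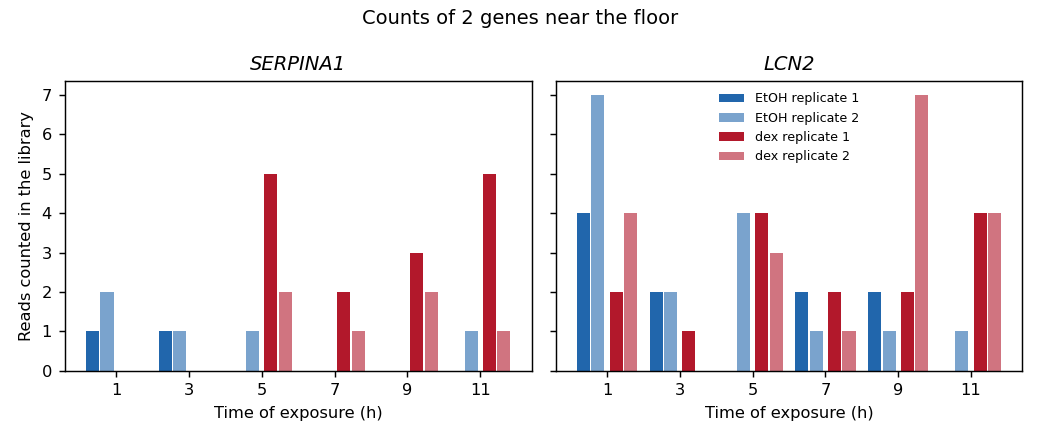
Reads counted in each library for *SERPINA1* and *LCN2*, against hours of exposure, on an axis that starts at 0, with a bar for each library and no bar where the count is 0. *SERPINA1* has 0 reads with dex at 1 and 3 h and 1 to 5 from 5 h on, while *LCN2* has 0 to 7 reads with both treatments.

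Counting libraries in place of p-values gave more members than the tests at 1, 3, 9 and 11 h and as many at 5 and 7 h. Both dex libraries were above both EtOH libraries for 3 of 6 members at 1 h (16.4% of all features), 4 at 3 h (26.8%), 5 at 5 h (27.2%), 5 at 7 h (28.8%), 5 at 9 h (25.9%) and 6 at 11 h (22.7%). The 1 h members were *FGA*, *FGB* and *SERPINA3*, and none of these 3 passed the test at 1 h. The 11 h members included *FGG* and *CP*, which did not pass the test at 11 h (adjusted p 0.538 and 0.568, edgeR).

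The shape over time was tested in 1 fit over the 24 libraries. The fold change differed between times for *C3* (adjusted p 5.98e-10), *FGA* (4.78e-09), *FGB* (8.20e-08) and *SERPINA3* (0.000659) by edgeR's quasi-likelihood test, and 13.8% of all features were called. *FGG* and *CP* were not called, with adjusted p of 0.179 and 0.559 (edgeR). The EtOH level differed between times for 0 of the 6 (0.0704% of all features), and the smallest adjusted p was 0.229, for *FGB* (edgeR). At an unadjusted p under 0.05 in the same edgeR fit, 2 members would have passed, *FGA* and *FGB*.

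The largest step lay between 3 and 5 h. The log2 fold change at 5 h exceeded that at 3 h by 2.35 ± 0.50 for *SERPINA3*, 1.69 ± 0.18 for *C3*, 1.57 ± 0.19 for *FGB* and 1.37 ± 0.20 for *FGA*, each called with adjusted p of 0.00396, 1.19e-06, 7.84e-06 and 4.64e-05 (edgeR), as were 2.19% of all features. *FGG* gave 0.72 ± 0.30 with an adjusted p of 0.215 (edgeR). Between 1 and 3 h *C3* was the member called, with a step of 0.68 ± 0.19 (adjusted p 0.0459, edgeR, 2.61% of all features), and *FGA* gave 0.52 ± 0.20 with an adjusted p of 0.195. From 7 to 11 h the log2 fold change of *C3* fell by 0.83 ± 0.19 (adjusted p 0.0597, edgeR, 0.0704% of all features). *FGA* and *FGB* gave changes of -0.81 ± 0.20 and -0.79 ± 0.20 over the same interval but missed the threshold, at adjusted p of 0.131 and 0.132 (edgeR). At 11 h the log2 fold change stood at 69.1% of its 7 h value for *FGA*, 63.1% for *C3*, 57.3% for *FGB*, 55.0% for *SERPINA3* and 43.5% for *FGG*.

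Per transcript length, in TPM (reads per base of transcript, scaled to the library) from the deposited counts and GENCODE lengths, the median level in EtOH libraries was 67.2 for *C3*, 18.0 for *FGB*, 13.8 for *CP*, 10.9 for *FGG*, 9.52 for *FGA* and 1.68 for *SERPINA3*. The 12 EtOH libraries of *C3* lay above those of every other member, and those of *SERPINA3* below the other 5. Each value sums all transcript rows of a gene, and a read in a short row weighs more. In *C3* the 5263-base row held 81.2% of the reads, and its other rows were 303 to 708 bases long. The TPM of *C3* thus rests in part on short rows, and its place by the long row alone was not tested. The ranges of *FGB* and *CP*, of *CP* and *FGG*, and of *FGG* and *FGA* overlapped. With dex the median TPM was 202.0 for *C3*, 38.7 for *FGB*, 33.3 for *FGA*, 13.2 for *FGG*, 12.7 for *CP* and 9.75 for *SERPINA3*, so *FGA* moved ahead of *FGG* and *CP* in the order.

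The regulators of the acute phase were also covered, as a list of 30 genes that holds cytokines, their receptors, kinases and transcription factors. Of 24 tested, 4 were higher and 1 lower at 1 h, 8 and 7 at 3 h, 12 and 4 at 5 h, 12 and 4 at 7 h, 13 and 6 at 9 h, and 10 and 5 at 11 h. The median log2 fold change of the list ran from -0.050 at 1 h to 0.45 at 9 h. The cytokine genes *IL6*, *IL1A*, *IL1B*, *OSM* and *TNF* of this list were too low to test, with *IL6* at 0 to 0.630 CPM. *IL6R*, the receptor that binds interleukin-6, was higher from 3 h on, by 2.13 ± 0.16 on the log2 scale at 3 h and 2.61 ± 0.17 at 9 h. *CEBPD*, a C/EBP factor with a known role in acute phase transcription, was higher at all 6 times, by 1.40 ± 0.21 at 1 h and 2.38 ± 0.20 at 5 h. *NFKBIA*, the NF-kappaB inhibitor and itself a GC target, was higher at all 6 times by 1.52 to 1.89. *IL11*, a cytokine of the interleukin-6 family, was lower at all 6 times, with log2 fold changes of -1.78 ± 0.17 at 1 h and -3.54 ± 0.21 at 5 h. These 4 genes were named for the size of their change in these same data, so their calls cannot be set against those of the members.

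The complement list of 27 genes, which leaves out *C3*, had 16 tested. At 5 h 5 were higher and 3 lower, and at 7 h 4 and 3, with a median log2 fold change of 0.12 and 0.062. *C1R* and *C1S*, the proteases of the first complement component, were higher at 5, 7 and 9 h, by 1.24 ± 0.18 and 0.73 ± 0.11 at 5 h. *CD59*, which protects cells from the membrane attack complex, was higher from 3 h on, by 1.06 ± 0.10 at 5 h. The list held calls in both directions, with 6 higher and 2 lower at 9 h. Its median log2 fold change ran from -0.061 at 3 h to 0.22 at 9 h.

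Among 24 other acute phase genes only 5 were tested, and 4 of them were higher and 0 lower at 5 h. *FGL1*, a fibrinogen-like gene, was higher at 5 h by 0.80 ± 0.19 and at 7 h by 0.65 ± 0.18, and *SOD2*, the mitochondrial superoxide dismutase, by 0.32 ± 0.10 and 0.40 ± 0.08. The other 19 genes, *CRP*, *HP*, *SAA1* and *HPX* among them, were below the filter for low counts. Of 9 other serpins of clade A, the family of *SERPINA1* and *SERPINA3*, only *SERPINA6* was tested and it was called at no time.

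Partners of the members made a list of 28 genes, of which 19 were tested, 6 higher and 4 lower at 5 h and 7 and 2 at 7 h. *ITGA5*, an integrin chain that takes part in cell binding to fibronectin and fibrin, was higher from 3 h on, by 2.86 ± 0.09 at 7 h. *F3*, tissue factor, was higher at 1, 3 and 11 h, by 1.37 ± 0.20, 1.35 ± 0.19 and 1.09 ± 0.24. *PLAT*, the tissue plasminogen activator, was lower at 5, 9 and 11 h, with -1.75 ± 0.47 at 11 h, at 0.437 to 2.52 CPM in all libraries from 5 h on, and its calls at 5 and 11 h were lost with DESeq2 (adjusted p 0.394 and 0.237). *SLC40A1*, the iron exporter that works with ceruloplasmin, was lower from 3 h on, with -1.70 ± 0.19 at 11 h, while *CP* itself was called at no time.

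**Figure D5:**
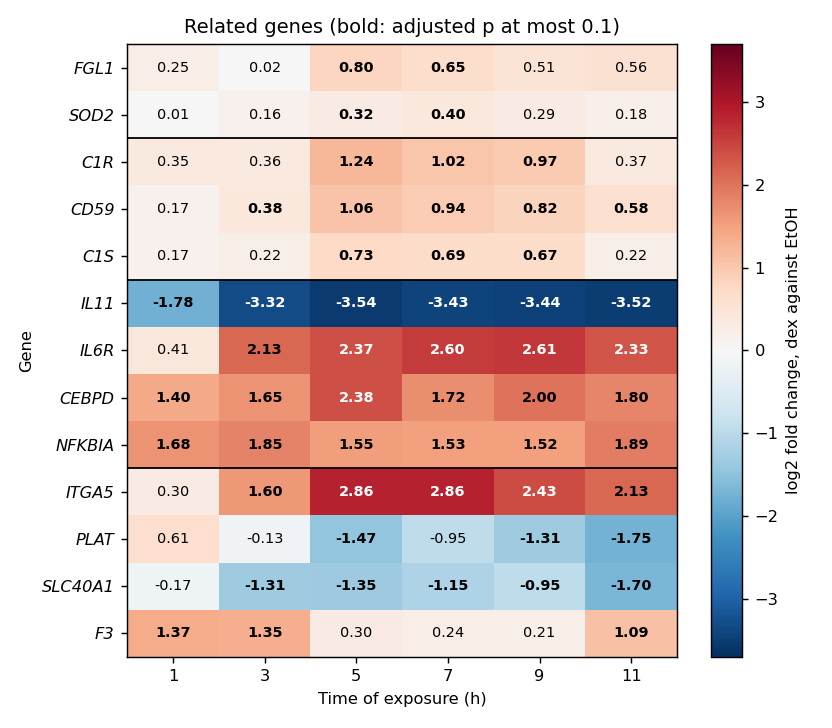
Log2 fold change of dex against EtOH for 13 genes related to the members, by hours of exposure, with the value printed in each cell and bold where the adjusted p is at most 0.1. From the top the blocks are other acute phase genes, complement genes, regulators and partners. *IL11* is the lowest row, at -1.78 to -3.54, and *ITGA5* reaches 2.86.

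The genes whose level ran most like that of each member were sought among 14022 genes with a mean of at least 1 CPM, by Pearson's r of log2 CPM over the 24 libraries, which share treatment and time. For *C3* they were *NFE2L1* (r = 0.982) and *P3H2* (0.978), for *FGA* *MT2A* (0.981) and *ITGA5* (0.977), and for *SERPINA3* *STIM1* (0.972). *MAOA* (0.970) was the closest for *FGB*. *FGG* and *CP* had weaker matches, with *PGK1* (0.819) and *C1S* (0.819) for *FGG* and *OTULIN* (0.755) and *NUP50* (0.734) for *CP*. *ITGA5* and *C1S* came from the lists above. Of the epithelial markers given earlier, *KRT8* and *KRT18* carried the sum that was higher with dex, *CDH1* was also higher at 5 and 7 h (log2 fold changes 0.65 and 0.54), and *EPCAM* was lower at 5, 7 and 9 h (-0.85, -0.96 and -0.71) and *KRT19* at 5 and 9 h (-0.57 and -1.03). Their part in these values was not tested.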

How the data were processed

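Stranded poly-A RNA-seq reads, 50 bases long, were mapped by the authors to GENCODE (v.19) transcripts with Bowtie (v.0.12.9) and counted per transcript with samtools idxstats (v.1.3.1). The deposited values are therefore raw counts, not divided by depth or length. The placing of reads with several matching transcripts and the use of strand in counting are not given in the sources used here. The labels' treatment text gives 1 h for every library, while their duration runs from 1 to 11 h and was used. The paper's methods state triplicates, and the labels give 2 replicates.

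Counts were summed per gene with the transcript assignments of GENCODE release 29. Of 119207 transcripts, 8945 had no gene and were tested singly, and genes held 94.1% of the counts. The row for unplaced reads held 0. Counts were tested with edgeR 4.0.16 (R 4.3.3) after TMM scaling and filterByExpr, 2 dex against 2 EtOH libraries at each time, with quasi-likelihood F-tests and Benjamini-Hochberg adjustment over 19897 features at 0.1. Fold changes are on the log2 scale, and CPM are TMM-scaled. Replicates of every group differed beyond counting noise, and the biological coefficient of variation was 6.48 to 12.7%. The scripts were tested on simulated data with 200 changed genes. Motifs were searched in RefSeq promoters (GRCh38.p14), exact tests used scipy 1.17.1, and matplotlib 3.10.9 drew the plots.

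The members and lists were chosen with earlier results of these data known. Genes named from the 4 lists with calls were the up to 4 with the largest mean change among those called at 2 or more consecutive times. Some genes that these rules picked are not reported here. The contrasts between times, the exact tests of ratios and low counts, and the check of *AL049839.2* and *HPS3* were chosen after seeing the data. Alternatives were DESeq2 1.42.0, its size factors in edgeR, no filter, at least 10 counts in every library, 1 fit over 24 libraries, the replicate block, a threshold of 0.05, transcript rows, and leaving out each replicate.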

Additional observations from a re-analysis of the deposited data

Results flagged for a closer look

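The response of 4 genes to dex differed between the 6 time points in a test of the difference itself (edgeR's quasi-likelihood test of dex by time over 24 libraries, adjusted over all features). The adjusted p was 5.98e-10 for *C3*, 4.78e-09 for *FGA*, 8.2e-08 for *FGB* and 0.000659 for *SERPINA3*. In each of these genes the log2 fold change was smallest at 1 h. Tested at each time by itself it was largest at 7 h for *FGA*, *FGB* and *SERPINA3*, and for *C3* it was 2.26 at both 5 and 7 h. The change from 5 to 7 h was 0.50 ± 0.20 for *FGA*, 0.08 ± 0.20 for *FGB* and 0.14 ± 0.50 for *SERPINA3*. None of these passed (adjusted p 0.998 for each, edgeR), and 0 of all features were called for that step, so 5 and 7 h were not separated. Groups of 2 libraries are too small to single out a library by its distance from the rest.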

How the results depend on the processing

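With 2 libraries a group, calls rest on a spread shared between genes, and 4 of 10 members lie at a depth of 0 to 7 reads where the fold change tests do not reach. The number of members called was 0 at 1 h under every setting, and at the later times *FGA*, *C3* and, from 5 h, *FGB* were called under all of them. Leaving out each replicate in turn gave 2 to 3 members called at 3 h, 4 to 5 at 5 h, 5 to 6 at 7 h, 4 to 5 at 9 h and 4 to 6 at 11 h. It gave 4 to 5 at consecutive times, 4 to 5 whose fold change differed between times and 0 whose EtOH level did. With no filter, 1 member (*FGB*) had an EtOH level that differed between times, and 1423 features did, against 14 with the filter. The cause was not tested.

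Replicate numbers were not used as pairs in the main fit, though the paper calls the vehicle control paired. The correlation of same-numbered deviations was 0.135 at 1 h, 0.102 at 9 h and -0.0588 to 0.0260 at the other times. The replicate block gave 0, 3, 5, 5, 5 and 4 members called from 1 to 11 h, the added one being *FGG* at 9 h (adjusted p 0.0312, edgeR). The block called 634 features at 1 h, 2200 at 3 h and 5224 at 9 h, against 172, 2576 and 3624 without it. DESeq2 called 1324, 2660, 2727 and 2032 features at 3, 5, 7 and 9 h, where edgeR called 2576, 4606, 5132 and 3624, and it called 2 and 4 members at 3 and 5 h. A single fit over 24 libraries called 2971 features at 11 h against 1707, and no filter 295 at 1 h against 172. Transcript rows called 2 members at 3 h, 4 at 5 h, 5 at 7 h and 3 at 11 h. At 7 h *FGG* lost its call (0.52, adjusted p 0.364, edgeR) and *CP* gained one in the lower direction (-0.44, adjusted p 0.0341, edgeR), and at 11 h *SERPINA3* had an adjusted p of 0.125 (edgeR). The filter of 10 counts removed *SERPINA3*.

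Signs that turned were all of values that had not passed the test. They were *CP* at 3 h with transcript rows (0.045), *CP* at 9 h with the block (0.021) and *SERPINA3* at 1 h with transcript rows (-0.058). Leaving out replicates moved the log2 fold change of *CP* between -0.042 and 0.084 at 1 h, -0.26 and 0.055 at 3 h, -0.33 and 0.0064 at 5 h, and -0.28 and 0.31 at 9 h. It moved *C3* between -0.24 and 0.061 at 1 h, and *FGG* between -0.17 and 0.24 at 1 h and -0.33 and 0.013 at 3 h. *FGG* lost its 5 h call without EtOH replicate 1 or dex replicate 1 (adjusted p 0.106 and 0.216, edgeR) and gained one at 11 h without dex replicate 2 (0.0665, edgeR). Among the other genes named, single replicates ended calls of *PLAT* at 5, 9 and 11 h, *CD59* and *F3* at 11 h, *CD59* at 3 h, *SOD2* at 5 h, *FGL1* at 7 h and *C1R* at 9 h. The exact tests kept their side of 0.05 with other scalings chosen after seeing the data.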
